A study of Mus musculus with 10 samples.

Results

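10 genes of retinoic acid supply and spermatogonial differentiation were followed in testes of mice with and without Mov10. The members, chosen by name, were Rdh10, Aldh1a1, Aldh1a2, Cyp26b1, Rara, Rarg, Stra8, Kit, Sohlh1 and Sohlh2. All 10 were found by Ensembl identifier among the 55421 genes of the count files. RNA-seq had been done at postnatal day 21 (P21) on 3 wild type (Mov10+/+) and 3 Mov10-/- libraries, from 3 pairs of testes of each genotype. The mice carried a mixture of the strains 129, C57BL/6 and FVB. Mov10-/- mice are global knockouts derived from a floxed allele by the ubiquitously expressed Actb-Cre, so that germ cells and somatic cells of the testis both carry the deletion. The deletion removes the exons of the first RNA helicase domain and leaves the others in place. 4 libraries of MOV10 CLIP-seq, in which RNA bound by the MOV10 helicase is recovered with an antibody after crosslinking, were also available from P21 testes.

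Retinoic acid is made from vitamin A by oxidation, first by retinol dehydrogenases such as RDH10 and then by retinaldehyde dehydrogenases of the ALDH1A family. CYP26 enzymes degrade it. Retinoic acid binds nuclear receptors, among them RARA and RARG, which pair with RXR proteins on DNA. In the testis it drives undifferentiated spermatogonia to become KIT-positive differentiating spermatogonia and later, through STRA8 and its partner MEIOSIN, drives germ cells into meiosis. SOHLH1 and SOHLH2 are transcription factors of the basic helix-loop-helix family that are needed for spermatogonial differentiation.

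The gene most closely tied to retinoic acid in the germ line is Stra8, and its promoter holds letters of the kind that retinoic acid receptors bind. Promoter sequences of RefSeq (build GRCm38.p6), from 250 bases before to 50 bases after a start site, were available for 9 of the 10 members in 15 windows. They were searched on both strands for the half-site AGGTCA and for its variant forms, which were AGTTCA, then GGGTCA, and then GGTTCA. All end in the same letters, and each member of a pair was also counted as a single half-site. Stra8 held 2 of them, both on the strand of the gene, and Sohlh1 held 1. Rara held more than Stra8, on both strands, with first bases at -246, -199, -122, -81 and 33 from its RefSeq start sites. Those of Stra8 and Sohlh1 are shown because they lie in the promoters of the meiotic target and of one of the differentiation factors. The capitals mark the half-site.
Stra8, chr6:34920748-34920765, plus strand: gtgaaaAGGTCAtcttgc
Stra8, chr6:34920904-34920921, plus strand: ggtaccAGGTCAgttttt
Sohlh1, chr2:25847452-25847469, minus strand: gtgatcAGGTCAcgtggt
The first base of the half-site lay at -194 and -38 from the RefSeq start site of Stra8 and at -215 from that of Sohlh1. In GENCODE M21, the annotation used for gene positions below, Stra8 begins at 34920163. Both Stra8 half-sites lie inside that gene span. Single half-sites are common. 43.7% of 32851 promoter windows held at least 1, as did 6 of the 15 member windows, which belong to Stra8, Sohlh1, Rara, Rarg and Aldh1a1. Pairs of half-sites in the same direction were sought with 1, 2 or 5 bases between them. They were found in 0.222%, 0.268% and 0.0974% of all windows, and in 0 member windows at each spacing. The pair with 5 bases between was present in the windows of 2 other genes of the pathway. These were the receptor gene Rarb and the degrading enzyme gene Cyp26a1, which are printed for contrast.
Rarb, chr14:16575510-16575532, minus strand: aagGGTTCAccgaaAGTTCActc
Cyp26a1, chr19:37697773-37697795, plus strand: agaTGAACTttgggTGAACTaat
In the Cyp26a1 window the pair reads on the strand opposite to the gene. Such matches describe letters in a window and do not show binding.

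RNA-seq libraries held 5083407 to 9230540 reads on genes. Levels are given as CPM, reads scaled to a common library size, in which 1 read was worth 0.108 to 0.197. Mov10-/- replicate 3 was the shallowest library, with 57.2% of its reads not aligned. The members had 114 to 1660 reads in a library. Mov10 itself had 110 ± 12.0 CPM (SD, n = 3) in wild type testes and 27.6 ± 1.39 CPM in Mov10-/- testes. Its log2 fold change was -2.00 (SE 0.12, edgeR adjusted p = 0.00552), and it was lower in each library labelled Mov10-/- than in each wild type library. Reads of the remaining exons still count toward it. A gene was called when its fold change was over 2 and its adjusted p under 0.05, and Mov10 was the 1 gene called of 20240 tested, or 0.00494% (0.0% higher and 0.00494% lower in Mov10-/- testes). Spermatid markers, which rise late in the first wave of spermatogenesis, set wild type replicate 2 apart, with a summed level of 1857 CPM against 696 and 911 CPM in the other wild type libraries and 354 to 703 CPM in Mov10-/- testes. Each comparison below holds for whole testes, in which fewer cells of a type and less RNA per cell cannot be told apart.

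None of the 10 members was called in Mov10-/- testes, and none had an adjusted p under 0.05. The adjusted p ranged from 0.221 for Rara to 0.995 for Aldh1a2 in edgeR's quasi-likelihood test. Fold changes were small, from -0.03 (Rarg) to 0.38 (Stra8) on the log2 scale, with a median of 0.14 against 0.03 over all genes tested. 8 of the 10 were positive, as were 53.8% of all genes tested. The 95% interval of every member lay inside a 2-fold change in either direction, from 0.706-fold at its lowest (Rarg) to 1.63-fold at its highest (Stra8), and the same was true of 59.6% of all genes tested. Changes of 2-fold or more were thus outside the intervals of all 10 genes at this depth, whereas smaller ones were not resolved.

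2 members, Stra8 and Rara, had every Mov10-/- library above every wild type library, and the same 2 had an unadjusted p under 0.05. Over all genes tested, 26.0% had libraries that did not overlap (11.9% higher and 14.1% lower in Mov10-/- testes) and 17.5% had an unadjusted p under 0.05 (5.58% higher and 11.9% lower). Both members were higher in Mov10-/- testes. Without wild type replicate 2 or without Mov10-/- replicate 2, 0 members had an unadjusted p under 0.05, and without Mov10-/- replicate 3 or 4 there was 1.

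**Figure D1:**
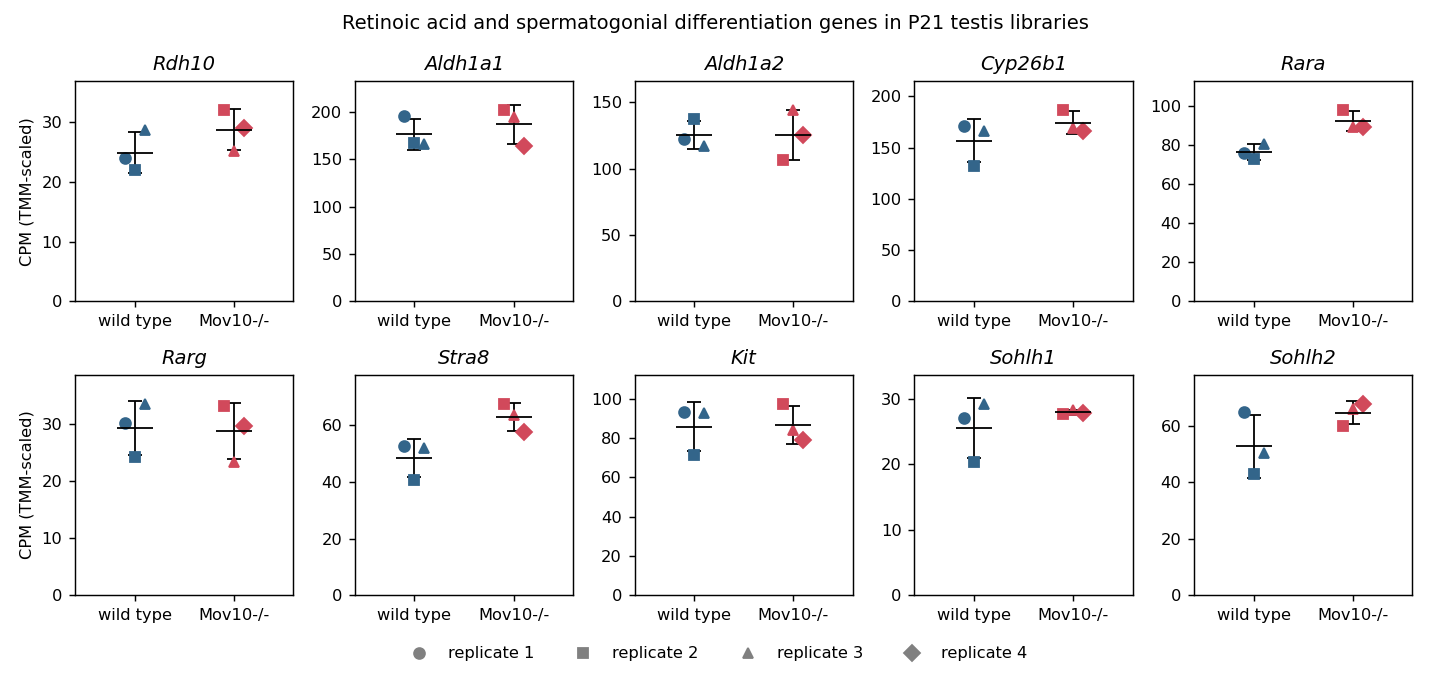
CPM scaled by trimmed mean of M values (TMM) of the 10 members in the 3 wild type (blue) and 3 Mov10-/- (red) libraries, with the mean and SD as black lines; marker shapes give replicate numbers, which do not pair libraries across genotypes. Stra8 and Rara have all red points above all blue points, and in the other 8 panels the genotypes overlap.

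The members that make or degrade retinoic acid overlapped between genotypes. Rdh10 (chromosome 1, 16105774 to 16133734, plus strand, mm10), for the enzyme that oxidizes retinol to retinaldehyde, had 24.0, 22.0 and 28.8 CPM in wild type replicates 1, 2 and 3. In Mov10-/- replicates 2, 3 and 4 it had 32.1, 25.3 and 29.0 CPM. The Mov10-/- range reached above the wild type range, but 2 libraries of opposite genotype shared nearly the same value at 28.8 and 29.0 CPM. The log2 fold change was 0.21 (SE 0.19, 95% interval -0.23 to 0.64, adjusted p = 0.596). It was 0.12 without Mov10-/- replicate 2 and 0.31 without wild type replicate 3.

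Aldh1a1 (chromosome 19, 20492715 to 20643465, plus strand) encodes a retinaldehyde dehydrogenase known from Sertoli cells. It had 195, 168 and 166 CPM in wild type and 202, 195 and 164 CPM in Mov10-/- testes, so that the lowest and the highest library were both Mov10-/-. Its log2 fold change was 0.08 (SE 0.12, interval -0.19 to 0.36, adjusted p = 0.737), and it was 0.02 without Mov10-/- replicate 2 and 0.17 without Mov10-/- replicate 4. Aldh1a2 (chromosome 9, 71215789 to 71296243, plus strand), for the enzyme of the same family known from germ cells of the testis, had 122, 137 and 117 CPM in wild type testes. It had 107, 144 and 125 CPM in Mov10-/- testes. The means were 125 ± 10.5 and 125 ± 18.8 CPM (SD, n = 3 each), with a log2 fold change of -0.00 (SE 0.13, interval -0.30 to 0.30, adjusted p = 0.995). Aldh1a2 was the member with the closest means.

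Cyp26b1 (chromosome 6, 84571414 to 84593908, minus strand) encodes the enzyme that clears retinoic acid from the fetal testis and so keeps male germ cells out of meiosis before birth. Wild type libraries had 171, 132 and 166 CPM and Mov10-/- libraries 187, 169 and 166 CPM. Wild type replicate 2 stood below the other 5 libraries, which lay between 166 and 187 CPM. The log2 fold change was 0.15 (SE 0.12, interval -0.13 to 0.43, adjusted p = 0.546). It was 0.05 without wild type replicate 2 and 0.10 without Mov10-/- replicate 2.

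Of the 2 receptors, Rara (chromosome 11, 98927818 to 98974942, plus strand) encodes the receptor known from Sertoli cells and germ cells alike. It had 75.7, 72.6 and 80.7 CPM in wild type testes and 98.0, 89.0 and 89.4 CPM in Mov10-/- testes. The genotypes did not overlap, and Rara had a narrow spread, with an SD of 5.34% of the mean in wild type and 5.53% in Mov10-/- testes. The log2 fold change was 0.27 (SE 0.10, interval 0.04 to 0.50), or 1.21-fold (1.03 to 1.41), with an unadjusted p of 0.0253 and an adjusted p of 0.221 in edgeR. Across 17 alternative settings it ranged from 0.22 to 0.30, with an adjusted p of 0.196 to 0.992.

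Rarg (chromosome 15, 102234938 to 102257517, minus strand) encodes the receptor that spermatogonia use to respond to retinoic acid. It had 30.3, 24.2 and 33.6 CPM in wild type and 33.2, 23.4 and 29.7 CPM in Mov10-/- testes. The 2 ranges nearly coincided, and the log2 fold change of -0.03 (SE 0.21, interval -0.50 to 0.45, adjusted p = 0.958) turned positive when wild type replicate 3 (0.07) or Mov10-/- replicate 3 (0.10) was left out.

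Stra8 (chromosome 6, 34920163 to 34939344, plus strand), the retinoic acid target whose half-sites are printed above, had the largest log2 fold change of the members. It had 52.6, 40.7 and 52.2 CPM in wild type testes. In Mov10-/- testes it had 67.7, 63.5 and 57.6 CPM. The genotypes did not overlap, although the lowest Mov10-/- library was close to the highest wild type library, and wild type replicate 2 was well below the other 2. The log2 fold change was 0.38 (SE 0.14, interval 0.04 to 0.71), or 1.30-fold (1.03 to 1.63), with an unadjusted p of 0.0308 and an adjusted p of 0.239 in edgeR. It stayed positive in all 17 alternative settings, from 0.26 to 0.51, with an adjusted p of 0.188 to 0.883. Without wild type replicate 2 it was 0.27 (adjusted p = 0.568).

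Kit (chromosome 5, 75574916 to 75656722, plus strand), for the receptor tyrosine kinase that marks differentiating spermatogonia and is also made by Leydig cells, had 93.5, 71.6 and 92.7 CPM in wild type testes. In Mov10-/- testes it had 97.6, 84.3 and 78.9 CPM. The genotypes overlapped throughout, with a log2 fold change of 0.02 (SE 0.14, interval -0.31 to 0.34, adjusted p = 0.961). Leaving out wild type replicate 2 turned it to -0.09, and leaving out Mov10-/- replicate 2 turned it to -0.08.

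Sohlh1 (chromosome 2, 25842995 to 25847248, minus strand) had 27.1, 20.4 and 29.3 CPM in wild type testes and a narrow 27.7, 28.4 and 27.9 CPM in Mov10-/- testes. The Mov10-/- values lay between the 2 higher wild type values, and the log2 fold change was 0.13 (SE 0.19, interval -0.32 to 0.57, adjusted p = 0.759). It was -0.01 without wild type replicate 2. Sohlh2 (chromosome 3, 55182028 to 55209957, plus strand), whose product forms a dimer with SOHLH1, had 64.9, 42.7 and 50.3 CPM in wild type and 59.9, 65.8 and 67.8 CPM in Mov10-/- testes. 2 of the 3 Mov10-/- libraries were above all wild type libraries and the third was below wild type replicate 1. The log2 fold change was 0.29 (SE 0.17, interval -0.09 to 0.68, adjusted p = 0.404), and it fell to 0.17 without wild type replicate 2 and reached 0.46 without wild type replicate 1.

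**Figure D2:**
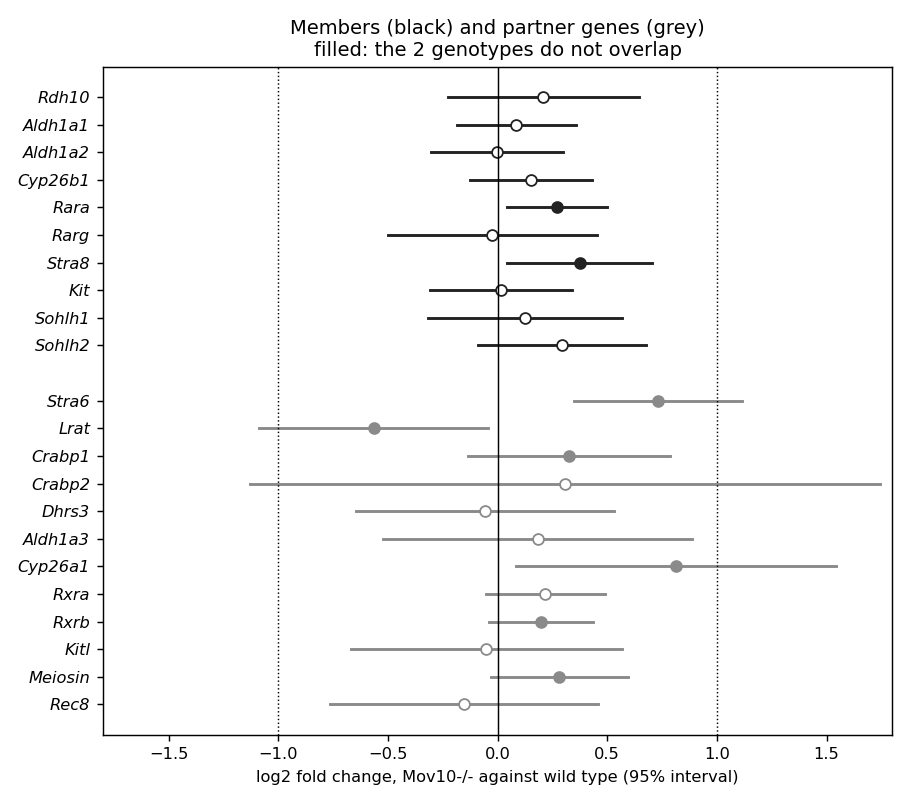
Log2 fold change of Mov10-/- against wild type testes with its 95% interval for the 10 members (black) and 12 partner genes of the pathway (grey); filled circles mark genes whose genotypes do not overlap and dotted lines mark 2-fold. All 10 black intervals lie between the dotted lines, and only Rara and Stra8 among them lie to the right of 0.

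2 libraries stood apart over many of the members. Wild type replicate 2, the library with the highest spermatid marker level, was the lowest of the 6 in 7 of the 10 members. Over all genes tested it was the lowest in 34.7%. Its median level over the members was 0.27 below the mean of the 6 libraries on the log2 scale. Mov10-/- replicate 2, which had the lowest spermatid marker level, was the highest in 6 of the 10 members, against 26.6% of all genes tested, with a median of 0.18. Aldh1a2 ran the other way, with wild type replicate 2 at 0.14 and Mov10-/- replicate 2 at -0.23. The part that spermatid content had in these values was not tested. Leaving out wild type replicate 2 left 0.27 for Stra8 and 0.24 for Rara, and leaving out Mov10-/- replicate 2 left 0.32 and 0.22.

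**Figure D3:**
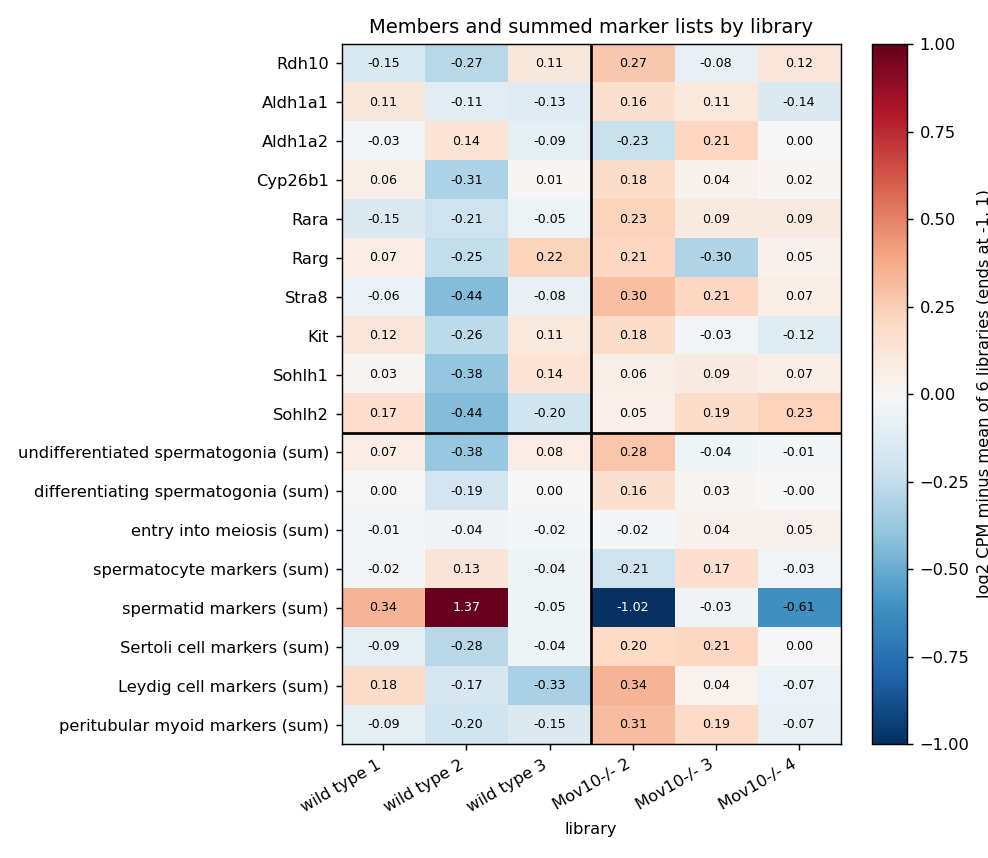
Log2 CPM of the 10 members and of the summed levels of 8 lists of cell type genes (below the line), each minus its own mean over the 6 libraries, shown in columns for wild type replicates 1 to 3 and Mov10-/- replicates 2 to 4. Wild type replicate 2 is the lowest (blue) in 7 of the 10 members and is at 1.37 for spermatid markers, where Mov10-/- replicate 2 is at -1.02.

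Ratios of 2 members within a library do not depend on how libraries are scaled, and 4 were compared with an exact two-sided permutation test, which with 3 against 3 libraries cannot go below p = 0.1. They are ratios of reads and are not corrected for gene length. The log2 ratio of Stra8 to Kit was -0.83, -0.82 and -0.83 in wild type replicates 1, 2 and 3. In Mov10-/- testes it was -0.53, -0.41 and -0.45. The 3 wild type libraries were almost equal, including replicate 2, in which both genes were low, and all 3 Mov10-/- libraries were higher. The difference of the means was 0.36 (wild type -0.82 ± 0.01 and Mov10-/- -0.46 ± 0.06, SD, n = 3 each; exact permutation p = 0.1, the smallest possible, 0.4 adjusted over the 4 ratios). The wild type libraries agreed more closely than the counting error of 1 library allows, which was 0.08 to 0.11, so that their SD understates the error. Leaving out 1 library at a time left the difference between 0.33 and 0.39.

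The other 3 ratios overlapped between genotypes. Rarg to Rara was -1.32, -1.58 and -1.26 in wild type and -1.56, -1.93 and -1.59 in Mov10-/- testes. The difference was -0.30 (exact permutation p = 0.2, adjusted 0.4), with 1 wild type library inside the Mov10-/- range. Aldh1a2 to Aldh1a1 differed by -0.09 (exact permutation p = 0.7), with values from -0.92 to -0.39 in Mov10-/- and -0.68 to -0.29 in wild type testes. Sohlh1 to Sohlh2 differed by -0.17 (exact permutation p = 0.3, adjusted 0.4). Leaving out 1 library moved Sohlh1 to Sohlh2 to between -0.28 (without wild type replicate 1) and -0.04 (without wild type replicate 3). It moved Rarg to Rara to between -0.40 (without wild type replicate 2) and -0.18 (without Mov10-/- replicate 3).

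**Figure D4:**
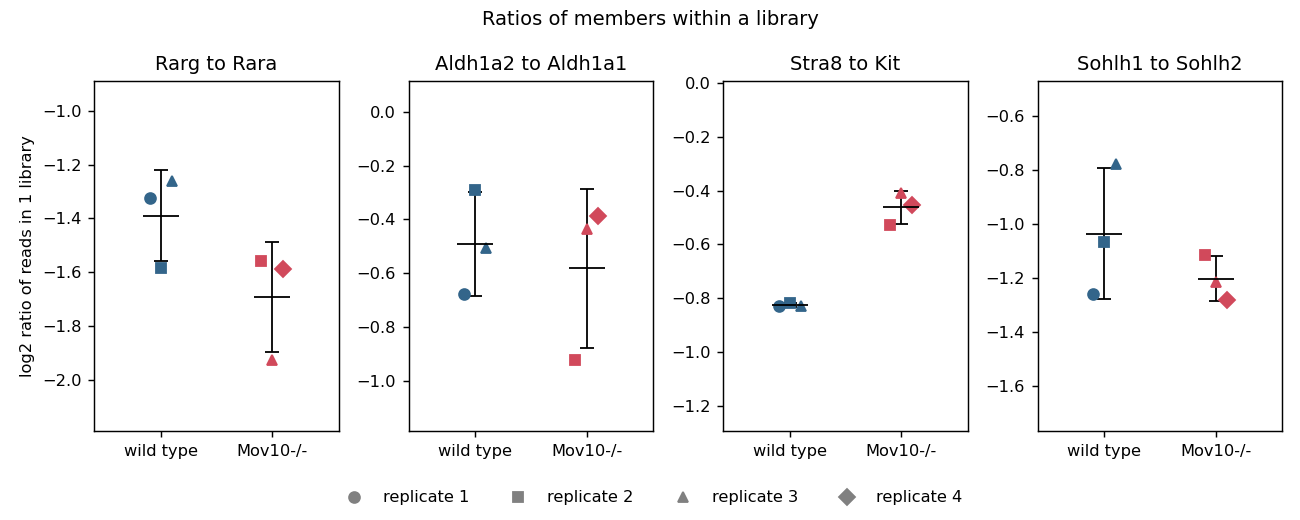
Log2 ratio of the reads of 2 members within each library, in wild type (blue) and Mov10-/- (red) testes, with the mean and SD as black lines and the same width of axis in each panel; marker shapes give replicate numbers, which do not pair libraries. For Stra8 to Kit the wild type points lie at -0.83 to -0.82 and the Mov10-/- points at -0.53 to -0.41, and in the other 3 panels the genotypes overlap.

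Compared per kilobase of exon, the members spanned about an order of magnitude in wild type testes. Aldh1a2 was the highest, at 55.4 ± 4.63 CPM per kilobase (SD, n = 3), and Aldh1a1 followed at 35.7 ± 3.36 without overlap. Cyp26b1 (29.2 ± 3.92), Stra8 (26.9 ± 3.76), Sohlh2 (22.3 ± 4.77), Sohlh1 (19.9 ± 3.60) and Rara (17.5 ± 0.93) came next, and each of these neighbours overlapped. Kit had many reads over 8911 bases of exon, joined from all its annotated transcripts. It came to 9.64 ± 1.39 and stood apart from Rara above and Rarg below. Rarg (6.89 ± 1.12) and Rdh10 (6.00 ± 0.83), which overlapped, were the lowest. In Mov10-/- testes the order was the same but for 2 pairs of neighbours that changed places. Stra8 (34.9 ± 2.81) came before Cyp26b1 (32.5 ± 2.10), and Rdh10 (6.93 ± 0.82) before Rarg (6.76 ± 1.17), and in both pairs the neighbours overlapped.

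Among other genes of retinoid transport and storage, 9 of 12 were tested and 0 were called. 3 had an unadjusted p under 0.05 and were higher in Mov10-/- testes, 1 was lower, and the median log2 fold change was 0.33. Stra6, the cell surface receptor that takes up retinol, had 40.7, 33.8 and 51.7 CPM in wild type testes. In Mov10-/- testes it had 67.7, 73.6 and 68.5 CPM. The genotypes did not overlap, and the log2 fold change was 0.73 (SE 0.17, interval 0.35 to 1.11, adjusted p = 0.150). Stra6 had an adjusted p under 0.05 in edgeR's exact and likelihood ratio tests and in DESeq2, but not in limma voom.

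Lrat, which esterifies retinol for storage, was lower in each Mov10-/- library, with 17.4, 25.5 and 24.7 CPM against 30.5, 40.5 and 28.8 CPM (log2 fold change -0.57, adjusted p = 0.255). The 2 cytoplasmic retinoic acid binding proteins had log2 fold changes of 0.33 (Crabp1, interval -0.13 to 0.78) and 0.31 (Crabp2, interval -1.13 to 1.74). Crabp2 had only 5 to 27 reads in a library, with 3.35, 1.23 and 0.617 CPM in Mov10-/- replicates 2, 3 and 4. Wild type libraries had 1.88, 0.959 and 1.40 CPM, so that only Mov10-/- replicate 2 was above them. Ppard, a nuclear receptor that can also bind retinoic acid, had a log2 fold change of 0.56. None of these passed the adjusted test.

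Genes of retinoid oxidation and reduction were centred near 0, with a median of 0.01 over the 18 tested of 25. 1 was higher and 2 were lower at an unadjusted p under 0.05, and 0 were called. The higher one was Cyp26a1, the paralog of Cyp26b1 that in many tissues is itself induced by retinoic acid and whose promoter pair is printed above. It had 5.77, 4.66 and 7.95 CPM in wild type and 11.3, 12.5 and 8.64 CPM in Mov10-/- testes. Its log2 fold change was 0.81 (SE 0.31, interval 0.08 to 1.54, adjusted p = 0.245) and the genotypes did not overlap. Cyp26c1 had 0 to 3 reads in each library and was not tested.

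Adh7 (-1.86, adjusted p = 0.192) and Bco1 (-2.82, adjusted p = 0.156), a dehydrogenase and the enzyme that cleaves beta-carotene, were the 2 lower ones. Both were highest in wild type replicate 2, with 19.4 and 24.0 CPM. Bco1 was called by edgeR's exact and likelihood ratio tests and by DESeq2. Aldh1a3, the other retinaldehyde dehydrogenase gene of the family, had a log2 fold change of 0.18 and Dhrs3, which reduces retinaldehyde back to retinol, -0.06.

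Of 13 receptors and cofactors 11 were tested, 2 were higher at an unadjusted p under 0.05 and 0 were called, with a median of 0.20. The partners of RARA and RARG had log2 fold changes of 0.22 (Rxra) and 0.20 (Rxrb). Rarb had 3 to 12 reads and Rxrg 0 to 5 reads in a library, and neither was tested. Ncoa2, a coactivator of these receptors, had a log2 fold change of 0.23.

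Other genes of undifferentiated and of differentiating spermatogonia had 0 calls. Among 17 tested genes of undifferentiated spermatogonia the median was 0.16, and Bcl6b, a factor of stem cell maintenance, was the 1 with an unadjusted p under 0.05 (-0.60, adjusted p = 0.223). Among 12 genes of differentiating spermatogonia the median was 0.15, and Ccnd1, a cyclin, was the 1 with such a p (0.43, adjusted p = 0.272). Kitl, the ligand of KIT, was counted among these 12 genes although it is made by Sertoli cells, so that the list is mixed. It ranged from 65.6 to 139 CPM in Mov10-/- and from 82.9 to 127 CPM in wild type testes, with a log2 fold change of -0.05.

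The genes of entry into meiosis had 17 of 17 intervals inside 2-fold, a median of 0.08 and 0 genes at an unadjusted p under 0.05. Meiosin, the partner of STRA8, had 87.4, 67.9 and 92.3 CPM in wild type and 99.7, 108 and 93.7 CPM in Mov10-/- testes, which did not overlap (log2 fold change 0.28, interval -0.03 to 0.59, adjusted p = 0.331). Rec8, the meiotic cohesin subunit, had 50.2, 100.4 and 53.2 CPM in wild type testes and 58.6, 55.3 and 68.4 CPM in Mov10-/- testes (-0.16, adjusted p = 0.785). Wild type replicate 2 was the highest library for Rec8 and the lowest for Meiosin and Stra8.

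Cell type markers give the mix of cells against which the members were read. Summed Sertoli cell markers were 1379 to 1629 CPM in wild type and 1679 to 1936 CPM in Mov10-/- testes, with 6 of 19 tested markers higher and 0 lower at an unadjusted p under 0.05, 0 called, and a median of 0.29. Peritubular myoid markers summed to 528 to 569 and 577 to 752 CPM, with 2 of 8 higher at such a p, 0 lower and a median of 0.33. The log2 fold changes of Stra8, Sohlh2 and Rara, the largest of the members, were 0.27 to 0.38. Those of the other members were lower, from -0.03 (Rarg) to 0.21 (Rdh10). The lists of undifferentiated and differentiating spermatogonia had medians of 0.16 and 0.15, and that of entry into meiosis 0.08. Leydig cell markers summed to 608 to 865 CPM in wild type and 729 to 966 CPM in Mov10-/- testes, with a median of 0.20. Rhox5 (Sertoli cells, 0 to 1 reads) and Insl3 (Leydig cells, 1 to 6 reads), 2 defining markers of these lists, had too few counted reads to be tested. Why so few of their reads were counted was not examined, so the counts do not show that the transcripts were absent. Endothelial and macrophage markers had 1 of 12 higher, 0 lower and a median of 0.26, and mesothelium markers 4 of 7 higher, 1 lower and a median of 0.96. Spermatocyte markers had a median of -0.05, with 1 of 15 lower. Spermatid markers had 18 of 22 lower at an unadjusted p under 0.05 and a median of -2.20. edgeR's quasi-likelihood test called 0 of these 22, its exact and likelihood ratio tests called 15 lower and DESeq2 called 16 lower. The part of these cells in the members' values was not tested.

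The genes with the most similar profile to a member were sought among 12326 protein-coding genes above 10 CPM, by the root mean square distance of centred log2 CPM over the 6 libraries. For Stra8 one of the 2 nearest was Epb41l3 (0.020), while those for Kit were Acad12 (0.035) and Ajuba (0.039), and those for Rara were Man2b1 (0.020) and Actn1 (0.033). Sohlh2 had no gene as close, the nearest being Rbp4 (0.046), which is itself the carrier of retinol in plasma, and Fbxo4 (0.081). For Cyp26b1 they were Clcn6 (0.017) and Srbd1 (0.022), and for Aldh1a2 Pfdn6 (0.019) and Spag7 (0.019). These distances describe 6 libraries only, and no member was among the 2 nearest genes of another.

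MOV10 CLIP-seq gave few reads on the members. The 4 libraries had 3404 to 4934 reads on genes, and 99.5% to 99.6% of the reads listed for each were not aligned. At this depth a gene without reads cannot be called unbound, and replicates 1, 2 and 3 differed by less than the sampling noise (chi-square over its degrees of freedom 0.222 to 0.236, against 1.62 to 1.93 with replicate 5), so that they were counted as 1 sample. 7 of the 10 members, among them Stra8, Kit, Sohlh1 and Sohlh2, had 0 reads in every library, which allows up to 3 reads in each. Each library had fewer reads on genes than the 55421 genes counted. The share of all genes without a read was not computed, so the count of 7 is not a result about the members. Rara had 3, 4 and 5 reads in replicates 1, 2 and 3 and 0 in replicate 5. Cyp26b1 had 2 reads in each of replicates 1, 2 and 3 and 0 in replicate 5, and Aldh1a1 had 1 read in replicate 2. No member had a read in both of the 2 samples that count as separate, and these limits cover counting error only.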

How the data were processed

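For each library the authors deposited counts of reads per Ensembl gene, made for RNA-seq with STAR on mm10 and HTSeq, without normalization. The CLIP-seq count files have the same layout. The extract protocol names 3 pairs of testes per genotype, and p-values measure the spread between these 6 libraries. Rows of htseq-count totals were left out of library sizes, and 28.3% to 47.2% of the RNA-seq reads listed lay on genes.

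The members and gene lists were chosen with earlier results of these data known. The 20240 genes that exceeded 1 RPM in 3 or more RNA-seq libraries were tested in R 4.3.3 with edgeR 4.0.16 (TMM, quasi-likelihood test, Benjamini-Hochberg over all genes tested), with only the 6 RNA-seq libraries in the fit. Fold changes are log2 values, with intervals at 95%. Alternatives were other normalizations and filters, edgeR's exact and likelihood ratio tests, DESeq2 1.42.0, limma 3.58.1 (voom), a fit with replicate numbers as a block, and the removal of single libraries. The script was tested on simulated data.

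Named were the members, Mov10, direct partners of members, the 2 genes nearest in profile to each member, and from each list of the pathway up to 3 genes with the smallest p. The results for Stra6 in other tools, Adh7 and the scaled position of single libraries were described after their values were seen. Names, positions and exon lengths came from GENCODE M21 (mm10), which matched 55240 of 55421 genes and is not the annotation release the authors counted on. Promoter windows came from RefSeq (GRCm38.p6). Rdh10 had no window. Protein sequences were not analysed here, and some genes that the rule names are not reported here.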

Additional observations from a re-analysis of the deposited data

Results flagged for a closer look

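Rara had a mean of 4 reads in MOV10 CLIP-seq over replicates 1, 2 and 3 counted as 1 sample, above the 3 counts that a count of 0 allows, and 0 reads in replicate 5. It was singled out because CLIP-seq lies outside the comparison of genotypes. The mean of 4 has a counting error of its own. Its difference from the 0 of replicate 5, the CLIP-seq library with the most reads on genes, was not tested. No control library without antibody or without MOV10 was analysed here. In RNA-seq Rara had 76.3 CPM in wild type testes, and its CLIP-seq reads were not compared with those of other genes of like level.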

How the results depend on the processing

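No member was called, or had an adjusted p under 0.05, in any of the 17 alternative settings. 6 of the 10 members kept their direction in all of them. Stra8, Rara, Sohlh2, Rdh10, Aldh1a1 and Cyp26b1 are these 6. Reversed values were Kit at -0.092 without wild type replicate 2, -0.077 without Mov10-/- replicate 2 and -0.070 without wild type replicate 2 and Mov10-/- replicate 3 (an alternative chosen after seeing the data); Sohlh1 at -0.0073 and -0.016 in the first and last of these; Aldh1a2 at 0.07 without wild type replicate 2, 0.10 without Mov10-/- replicate 2 and 1.53e-05 without Mov10-/- replicate 4; and Rarg at 0.07 without wild type replicate 3 and 0.10 without Mov10-/- replicate 3. With 1 library left out, the log2 fold change ranged from -0.092 to 0.084 for Kit, from -0.0073 to 0.23 for Sohlh1, from -0.11 to 0.10 for Aldh1a2 and from -0.14 to 0.10 for Rarg. The log2 ratio of Aldh1a2 to Aldh1a1 was 0.0098 and 0.080 without wild type or Mov10-/- replicate 2, and with 1 library left out ranged from -0.19 to 0.080. Members at an unadjusted p under 0.05 (2) ranged from 0 to 2 with 1 library left out and numbered 1 without both of the 2 libraries. Members whose genotypes do not overlap (2) ranged from 2 to 4 and were 4 without wild type replicate 1 or 3. Genotypes are apart more easily when a group has fewer libraries. The share over all genes tested was not computed for these settings, and the cause of the changes was not tested. Of the genes of the other lists, 0 were called, against 18 in edgeR's exact and likelihood ratio tests and 19 in DESeq2, of which 15 and 16 were spermatid markers. Over all genes, 1 was called, against 6 with library totals only, 10 with no RPM filter, 1101 in the exact test, 1187 in the likelihood ratio test, 1039 in DESeq2, 2 in limma voom and 0 without Mov10-/- replicate 3 or 4.

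Replicates 2 and 3 are shared as numbers between genotypes, but the deviations of same-numbered libraries correlated at -0.46 and -0.34 across 20240 genes, and no label says that the numbers pair animals. With a replicate block, in which the 2 libraries whose number is not shared add nothing to the contrast, 0 members had an unadjusted p under 0.05, 2 genes of the other lists were called and 184 genes in all. The fewest reads of a member in a library were the 114 of Rarg in Mov10-/- replicate 3.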
